A study of Mus musculus with 18 samples.

Results

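H3K9me3 over the proximal 120 Mb of mouse chromosome 4 was compared between the 6 available peak lists of mouse embryonic stem cells (mESCs). The proximal interval begins at position 8000000 of chr4 (mm10), and its members, the peaks that lie wholly within the 120 Mb from there, number 31235 of the 646397 peaks of the 6 lists together. The 7706 peaks of the last 24.5 Mb of the chromosome served as the distal stretch, and the 4 Mb between both were left out. The interval was chosen by the peak number of *Dhx9* KO replicate 1, which calls many more peaks in it, so its peak numbers are given as a description without a test. Read tests of *Dhx9* KO include that library, so their proximal counts are a description as well.

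All lists come from the ES-E14TG2a line (E14TG2a) of mESCs, grown in serum and LIF on gelatin, with chromatin precipitated by an Abcam antibody to H3K9me3. The 3 genotypes were wild-type, *Dhx9* KO and *Uhrf1* KO, with 2 libraries each. *Uhrf1* KO cells were CRISPR-Cas9 clones made in mESCs that carry an inducible heterochromatin reporter. The paper's figure legends name the wild-type cells compared with them by the same reporter. The sources used here do not say how the *Dhx9* KO line was made or whether its libraries come from the same clone. Each pair of replicates differed by more than counting noise. The paper's methods name 2 biological replicates per sample for its ChIP-seq libraries. Neither they nor the labels tell separate cultures from repeat preparations, so the tests below measure only the spread between libraries.

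H3K9me3 is a histone mark of heterochromatin, deposited by the SETDB1, SUV39H1 and SUV39H2 methyltransferases and bound by HP1 proteins. In mESCs it covers pericentromeric repeats, endogenous retroviruses, imprinted loci and clusters of zinc finger genes. DHX9 is a helicase that unwinds RNA and DNA-RNA hybrids, and UHRF1 binds hemimethylated DNA and methylated H3K9 and recruits the maintenance methyltransferase DNMT1. Proximal chromosome 4 carries interferon, major urinary protein (*Mup*), *Skint* and *Cyp4* gene clusters next to long neuronal genes.

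The strongest peaks are shown as sequence, since their CpG content is part of the comparison below. The sequences are the plus strand of the GRCm38.p6 reference in mm10 coordinates, the central 300 bases of a peak or region or the whole of a shorter peak, with every CG in capitals. The first pair of windows comes from regions with a peak in each of the 6 lists. Among such regions they rank highest by the lower wild-type log2 fold. Both lie between genes near *Mup19*, and the windows hold 12 and 13 CG dinucleotides. Some lists call only part of these regions.
chr4:61768751-61769050: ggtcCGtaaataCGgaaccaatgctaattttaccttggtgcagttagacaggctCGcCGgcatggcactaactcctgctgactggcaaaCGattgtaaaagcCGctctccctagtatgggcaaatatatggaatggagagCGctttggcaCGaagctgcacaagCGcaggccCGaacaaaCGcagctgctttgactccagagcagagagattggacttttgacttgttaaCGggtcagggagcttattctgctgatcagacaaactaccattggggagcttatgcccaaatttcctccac
chr4:61744851-61745150: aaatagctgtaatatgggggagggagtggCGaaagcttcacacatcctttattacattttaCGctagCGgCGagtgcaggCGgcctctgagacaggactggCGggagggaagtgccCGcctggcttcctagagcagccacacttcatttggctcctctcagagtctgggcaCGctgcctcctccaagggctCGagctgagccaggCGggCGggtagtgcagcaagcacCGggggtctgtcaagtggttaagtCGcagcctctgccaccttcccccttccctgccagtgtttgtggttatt
The next 3 windows come from peaks that only *Dhx9* KO replicate 1 had, and hold 1, 2 and 2 CG dinucleotides. The first pair has the highest log2 fold of ChIP over background among such peaks and lies between genes, 205921 bp from *C630043F03Rik* and 86867 bp from *Gm12911*. The last comes from the one with the most ChIP reads and lies in an intron of the non-coding gene *Gm2164*. Its whole peak has 3.80 CpG per 100 bases, more than its central window shows.
chr4:72409851-72410150: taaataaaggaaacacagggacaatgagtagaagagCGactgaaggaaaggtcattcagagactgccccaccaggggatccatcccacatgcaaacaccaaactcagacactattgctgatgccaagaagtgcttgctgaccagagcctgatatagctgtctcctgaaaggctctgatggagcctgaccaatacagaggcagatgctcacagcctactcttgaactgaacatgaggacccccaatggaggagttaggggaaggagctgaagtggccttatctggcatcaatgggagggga
chr4:68225401-68225600: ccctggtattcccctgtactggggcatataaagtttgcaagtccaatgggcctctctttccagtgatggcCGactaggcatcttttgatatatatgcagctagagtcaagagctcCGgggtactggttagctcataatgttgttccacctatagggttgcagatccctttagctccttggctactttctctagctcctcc
chr4:124653651-124653950: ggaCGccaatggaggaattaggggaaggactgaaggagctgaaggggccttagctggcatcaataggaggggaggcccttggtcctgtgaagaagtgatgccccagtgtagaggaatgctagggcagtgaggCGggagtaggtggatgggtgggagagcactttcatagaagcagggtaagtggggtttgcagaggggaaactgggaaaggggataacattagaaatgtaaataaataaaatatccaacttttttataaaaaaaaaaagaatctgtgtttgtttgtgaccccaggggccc
The last pair shows the regions with the smallest adjusted p in the read comparisons with wild-type, first *Dhx9* KO and then *Uhrf1* KO. Both lie between genes, and the repeated unit in the *Uhrf1* KO window can be read directly in it.
chr4:38067751-38068050: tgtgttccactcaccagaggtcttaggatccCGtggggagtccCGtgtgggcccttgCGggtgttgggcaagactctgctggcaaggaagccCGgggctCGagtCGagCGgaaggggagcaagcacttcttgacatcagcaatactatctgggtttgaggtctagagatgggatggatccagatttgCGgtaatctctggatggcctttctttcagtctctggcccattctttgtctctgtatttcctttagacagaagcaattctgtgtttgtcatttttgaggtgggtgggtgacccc
chr4:63663451-63663750: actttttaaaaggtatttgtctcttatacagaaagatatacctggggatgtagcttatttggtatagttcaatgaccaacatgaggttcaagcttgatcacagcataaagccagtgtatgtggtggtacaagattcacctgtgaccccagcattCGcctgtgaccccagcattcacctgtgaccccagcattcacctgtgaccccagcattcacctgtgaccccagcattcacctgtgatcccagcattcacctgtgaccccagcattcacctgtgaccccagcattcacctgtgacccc

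The proximal interval held 4698 and 4941 peaks in wild-type replicates 1 and 2, 9473 in *Dhx9* KO replicate 1, 5169 in *Dhx9* KO replicate 2, and 2999 and 3955 in *Uhrf1* KO replicates 1 and 2. *Dhx9* KO replicate 1 thus had 1.97 times the wild-type mean, while the other *Dhx9* KO library had 1.07 times and the *Uhrf1* KO libraries 0.622 and 0.821 times. The distal stretch held 1501 and 1582 wild-type peaks, 1603 and 1290 *Dhx9* KO peaks, and 711 and 1019 *Uhrf1* KO peaks. In that stretch *Dhx9* KO replicate 1 stood at 1.04 times the wild-type mean, and at 1.07 times over the 17 other autosomes without chromosome 8. On single autosomes apart from 4 and 8, its peak number ran from 1.01 to 1.12 times the wild-type mean, and on chromosome 8 it was 0.581 times. On proximal chromosome 4 this list was thus above every other autosome, and on chromosome 8 it was below every other. On the X and Y chromosomes it had 0.693 and 0.197 times the wild-type mean, against 1.17 and 0.531 times in *Dhx9* KO replicate 2.

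**Figure D1:**
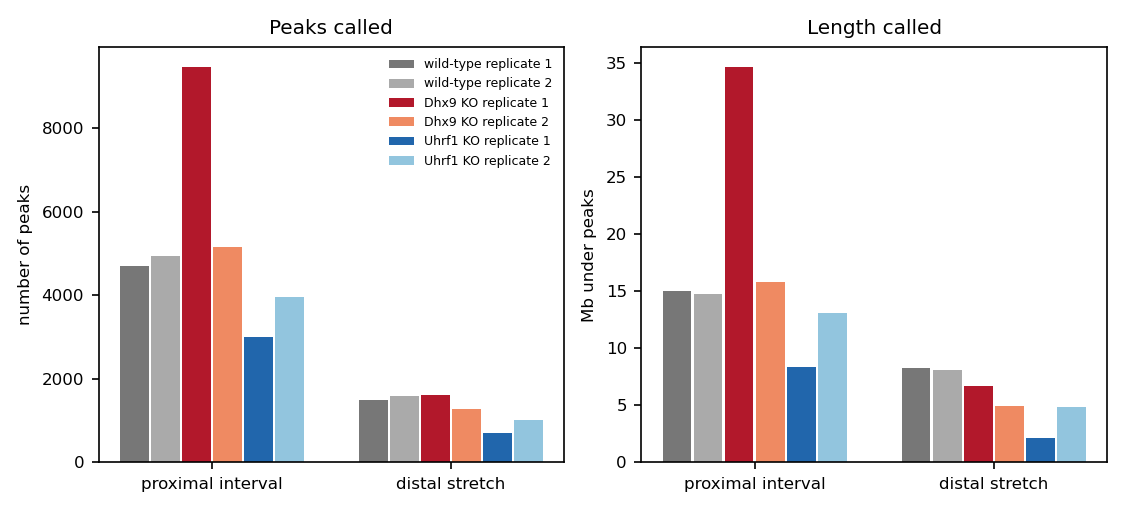
Number of H3K9me3 peaks (left) and Mb under peaks (right) in the proximal interval and distal stretch of chromosome 4, with 1 bar per library. *Dhx9* KO replicate 1 has 9473 proximal peaks over 34.7 Mb, against at most 5169 peaks and 15.8 Mb in the other 5 libraries, while it has 1603 distal peaks against at most 1582 and 6.74 Mb against at most 8.32 Mb.

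As a share of each list, the proximal interval took 4.04% and 4.12% of wild-type peaks, 7.55% of *Dhx9* KO replicate 1 peaks (95% exact binomial interval 7.41% to 7.70%, counting error only) and 4.28% of *Dhx9* KO replicate 2 peaks. The *Uhrf1* KO shares were 4.27% and 4.21%. The libraries other than *Dhx9* KO replicate 1 thus lay within 4.04% to 4.28%, although the *Uhrf1* KO lists were much shorter. *Uhrf1* KO shares exceeded wild-type by 0.160 percentage points on average (exact two-sided permutation test, p = 0.333), which is the smallest p that 2 against 2 libraries can give.

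Peaks covered 15.1 and 14.8 Mb of the interval in wild-type, 34.7 and 15.8 Mb in *Dhx9* KO, and 8.39 and 13.1 Mb in *Uhrf1* KO replicates 1 and 2. In *Dhx9* KO replicate 1 this was 28.9% of the interval, against 12.6% and 12.3% in wild-type. Median width moved little, from 2400 bp in both wild-type lists to 2600 bp and 2400 bp in *Dhx9* KO and to 2200 bp and 2600 bp in *Uhrf1* KO. Peaks of 10 kb or longer numbered 138 and 124 in wild-type, 530 and 111 in *Dhx9* KO, and 55 and 131 in *Uhrf1* KO, and the longest in *Dhx9* KO replicate 1 reached 79600 bp, against 37000 and 38800 bp in wild-type. Both more peaks and more long peaks made up the difference in called length of *Dhx9* KO replicate 1.

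Median ChIP reads per proximal peak were 103 and 93 in wild-type, 111 and 102 in *Dhx9* KO, and 47 and 98 in *Uhrf1* KO. Median background reads were 54 and 52 in wild-type, 53 and 52 in *Dhx9* KO, and 25 and 32 in *Uhrf1* KO. Relative to called length, background was 23.1 reads per kb in both wild-type lists, 22.0 and 21.8 in *Dhx9* KO, and 11.9 and 13.1 in *Uhrf1* KO. Per kb called, both *Dhx9* KO lists were thus alike and slightly under wild-type. Peaks with identical limits had identical background reads in the wild-type and *Dhx9* KO lists, so these values differ with the stretches called. The lower background of the *Uhrf1* KO lists went with a higher median log2 fold of ChIP over background, 1.67 and 1.42 against 1.12 and 1.13 in wild-type and 1.14 and 1.06 in *Dhx9* KO. *Uhrf1* KO peak numbers are compared with that difference in background in place, and its part in them was not tested.

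ChIP reads per kb called were 45.9 and 44.2 in wild-type, 48.9 and 47.7 in *Dhx9* KO, and 27.2 and 47.1 in *Uhrf1* KO. Over whole lists, ChIP reads within peaks ranged from 6703081 in *Uhrf1* KO replicate 1 to 20875020 in wild-type replicate 1, and *Uhrf1* KO replicate 1 stood apart from the other 5 lists by its low number. The *Dhx9* KO libraries had 19761402 and 20491615, against 20875020 and 19543177 in wild-type.

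The higher peak number of *Dhx9* KO replicate 1 ran along the whole interval. In all 30 bins of 4 Mb it exceeded both wild-type libraries, by 1.09 times the wild-type mean in the bin that starts at 124 Mb up to 3.16 times in the bin that starts at 88 Mb, with a median of 2.38. There were 20 bins in which it had more than 2 times the wild-type mean. *Dhx9* KO replicate 2 exceeded both wild-type libraries in 19 of 30 bins, with a median ratio of 1.11 and a range of 0.784 to 1.42, and no bin reached 1.5 times. *Uhrf1* KO replicates 1 and 2 did so in 2 and 6 bins, with medians of 0.702 and 0.857. In the 6 distal bins, *Dhx9* KO replicate 1 ran from 0.828 to 1.23 times the wild-type mean and *Dhx9* KO replicate 2 from 0.682 to 0.984.

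**Figure D2:**
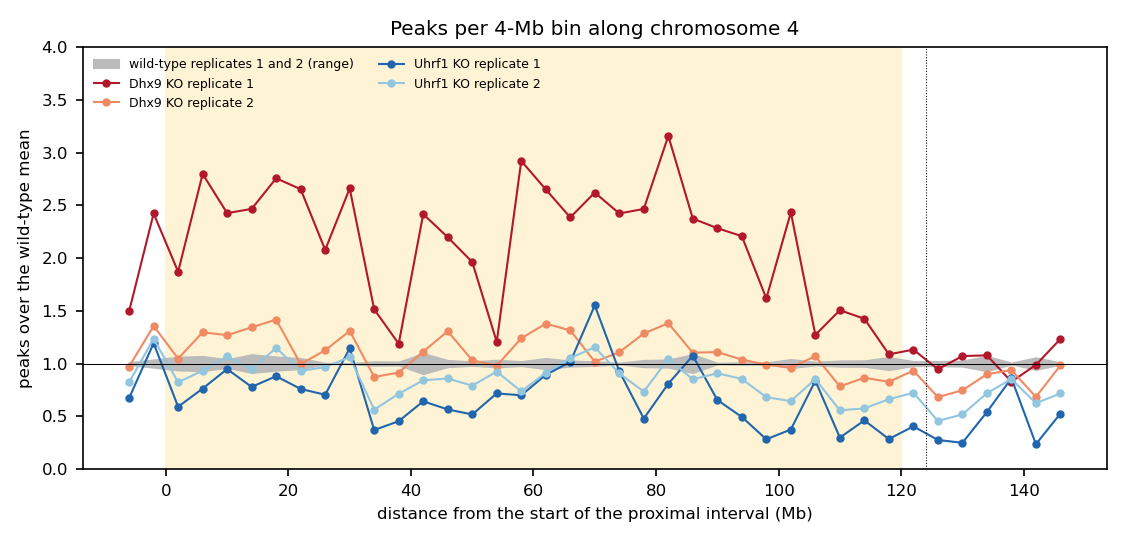
Peaks per 4-Mb bin of chromosome 4 over the wild-type mean, against distance from the start of the proximal interval (shaded); grey is the range of both wild-type libraries and the dotted line is the start of the distal stretch. *Dhx9* KO replicate 1 lies above wild-type in all 30 proximal bins, up to 3.16 times, and returns to between 0.828 and 1.23 times over the 6 distal bins.

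The ratio was highest where wild-type had few peaks. Across the 30 bins, the ratio of *Dhx9* KO replicate 1 and the wild-type peak number had a Spearman correlation of -0.89, a description of bins that share their wild-type counts and are not replicates. The difference in peak number had a median of 160 peaks per bin and a range of 25.5 to 244.5. The bin from 76 to 80 Mb, which holds most of *Ptprd*, had 57 and 59 wild-type peaks and 152 in *Dhx9* KO replicate 1. The bin from 44 to 48 Mb, which holds *Pax5*, had 289 and 297 wild-type peaks and 348 in *Dhx9* KO replicate 1.

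At the limits of the interval, the last *Dhx9* KO replicate 1 peak before it was chr4:7995001-7997400 with 98 ChIP and 45 background reads, and the first inside was chr4:8009601-8010600 with 59 and 18. At the other end, the last inside was chr4:127992201-127996200 with 136 ChIP and 88 background reads, and the next was chr4:127998001-128013200 with 685 and 375. The limits are set by position alone, and peaks of this list continue on both sides of them.

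Read numbers were compared in peaks with the same start and end in a pair of lists, where length and background are equal. In pairs among wild-type and *Dhx9* KO lists, all such peaks had identical background reads, and only 2.27% to 4.29% of those shared by wild-type and *Uhrf1* KO lists did. For *Dhx9* KO replicate 1 over wild-type replicate 1 they gave a median log2 ratio of ChIP reads of 0.23 over 259 proximal peaks, -0.20 over 56 distal peaks and -0.10 over 5591 peaks of all other chromosomes. The proximal peaks were thus 0.33 above the other chromosomes on the log2 scale, or 1.26-fold, and 82.2% of them lay above the median of the other chromosomes. Against wild-type replicate 2 the difference was 0.35 (268 proximal peaks), and against *Dhx9* KO replicate 2 it was 0.34 (215 proximal peaks).

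The same measure for *Dhx9* KO replicate 2 was -0.06 against wild-type replicate 1 and -0.02 against wild-type replicate 2, and for wild-type replicate 2 over replicate 1 it was 0.00. For *Uhrf1* KO replicates 1 and 2 over wild-type replicate 1 it was -0.02 and 0.05. Among the 17 autosomes other than 4 and 8, *Dhx9* KO replicate 1 over wild-type replicate 1 ran from -0.07 to 0.06, and chromosome 8 stood at -0.24. The X chromosome stood at -0.25 in that pair, and at -0.18 against wild-type replicate 2. The proximal read difference stood outside the other autosomes in *Dhx9* KO replicate 1 and was not seen in *Dhx9* KO replicate 2. The interval was chosen by the peak number of *Dhx9* KO replicate 1, so the read difference of that library is a description and no separate support. In windows of 20 Mb over regions covered in all 4 libraries, the difference from wild-type replicate 1 lay between 0.20 and 0.45 up to 120 Mb, was 0.10 between 120 and 140 Mb (27 regions) and -0.10 beyond 140 Mb (36 regions). Between 120 and 140 Mb it was 0.19 against wild-type replicate 2 and 0.32 against *Dhx9* KO replicate 2, and beyond 140 Mb it was -0.09 and 0.03. Both *Dhx9* KO lists were read against the wild-type background, and the input of the *Dhx9* KO line was not analysed here.

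**Figure D3:**
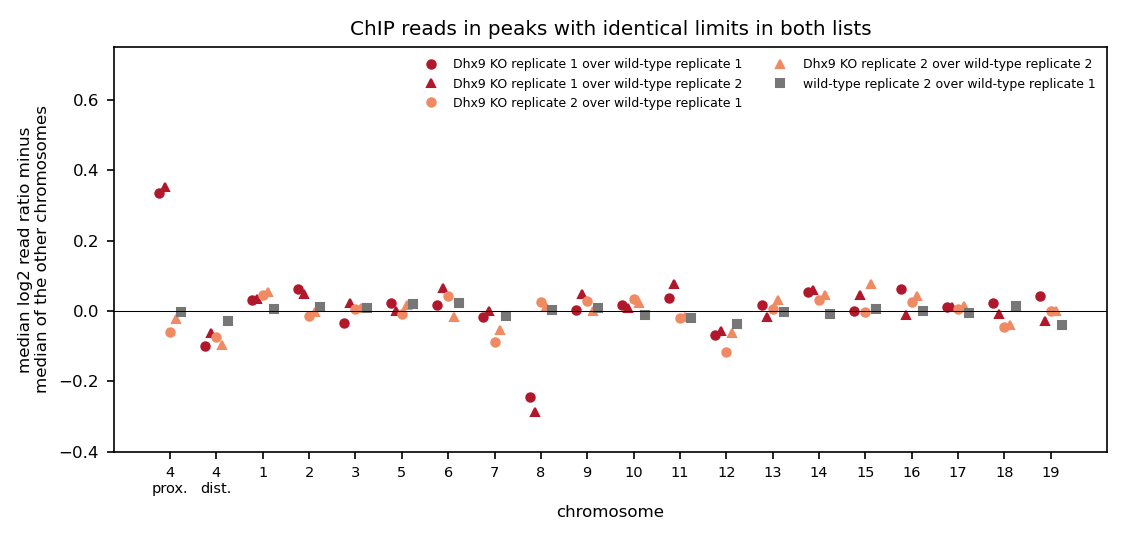
Median log2 ratio of ChIP reads in peaks with identical limits in both lists, minus the median over the chromosomes other than 4, for the proximal and distal parts of chromosome 4 and each other autosome; each symbol is a pair of libraries. *Dhx9* KO replicate 1 lies at 0.33 and 0.35 on proximal chromosome 4 and at -0.24 and -0.29 on chromosome 8, and the *Dhx9* KO replicate 2 and wild-type pairs lie near 0.

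Of the proximal *Dhx9* KO replicate 1 peaks, 3399 (35.9%) shared no base with a peak of the other 5 lists, against 10.7% over the whole list. The share was 5.55% in the distal stretch and 8.96% over the 17 other autosomes without chromosome 8, with a range over single autosomes of 1.15% on chromosome 8 to 10.2% on chromosome 3. In the other lists, proximal peaks without a counterpart numbered 50 and 70 in wild-type, 179 in *Dhx9* KO replicate 2, and 205 and 67 in *Uhrf1* KO. These were 1.06%, 1.42%, 3.46%, 6.84% and 1.69% of their proximal peaks, against 5.06%, 5.70%, 8.98%, 7.62% and 3.85% over the whole lists. The remaining proximal peaks of *Dhx9* KO replicate 1 were shared with 1 to 4 lists (4294) or with all 5 (1780). Of the proximal peaks of wild-type replicates 1 and 2, 96.9% and 96.0% overlapped a *Dhx9* KO replicate 1 peak. Over the whole lists these shares were 77.0% and 76.1%. That library called 28.9% of the interval, and overlap rises with called length, so nothing is read from the proximal shares. By comparison, 81.5% of the proximal wild-type replicate 1 peaks overlapped wild-type replicate 2, 76.3% overlapped *Dhx9* KO replicate 2, and 47.2% and 67.7% overlapped *Uhrf1* KO replicates 1 and 2.

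The extra peaks covered 7.46 Mb and were narrower and weaker than the shared ones. Their median width was 2000 bp, against 2800 bp for peaks shared with 1 to 4 lists and 4200 bp for those shared with all 5. Median ChIP reads were 78, 127.5 and 239.5 in the same order, and median log2 fold was 1.00, 1.10 and 1.47. FDR was at most 1e-10 for 37.2% of the extra peaks and 97.0% of those in all lists. Wide and strong peaks overlap another list more easily, so these differences follow in part from how the classes are defined. On the other autosomes without chromosome 8, extra peaks of this library had a median width of 1800 bp, against 2400 bp for all its peaks there. Extra peaks lay at a median of 7800 bp from the nearest wild-type peak, and 1434 of them (42.2%) lay over 10 kb away.

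Placed on the deposited gene annotation by their midpoints, 54.0% of the extra peaks lay between genes, 40.8% in introns, 3.18% in exons and 1.94% within 1 kb of a start site. All 200-bp bins of the interval fell into these classes at 53.1%, 41.1%, 2.79% and 3.00%. The extra peaks were thus spread over genes and intergenic sequence nearly as the interval itself is. Of the peaks shared with all 5 other lists, 66.97% lay between genes and 28.5% in introns. Distal *Dhx9* KO replicate 1 peaks lay between genes at 46.2%, in a stretch with 25.7 genes per Mb against 11.4 in the proximal interval.

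In base composition, extra peaks lay between the interval and the shared peaks. They had 0.821 CpG per 100 bases on average, against 0.774 over the interval, 0.976 in peaks shared with 1 to 4 lists and 1.07 in those shared with all 5. GC content was 44.5% in extra peaks, 45.7% in peaks of all lists and 41.1% over the interval. Soft-masked repeats made up 33.8% of an extra peak on average, against 27.9% in peaks shared with 1 to 4 lists, 36.8% in the peaks of all lists and 35.6% of the interval.

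The extra peak with the highest log2 fold was chr4:72409801-72410200, with 33 ChIP reads, 1 background read and a log2 fold of 5.05. The next was chr4:68225401-68225600, with 26 and 1 reads and a log2 fold of 4.70, followed by chr4:113307601-113307800 near *Skint6*, with 25 and 1 reads and 4.65. These are short peaks of few reads in which the fold rests on a background of 1 read. The extra peak with the most ChIP reads was chr4:124648001-124659600, which overlaps *Pou3f1*, a neural POU-domain transcription factor, and *Gm2164*, with 434 ChIP and 321 background reads and a log2 fold of 0.44. Another with many reads, chr4:117294201-117303800 over the E3 ubiquitin ligase gene *Rnf220*, had 373 and 244 reads, and chr4:118244601-118253200 over the receptor phosphatase gene *Ptprf* had 368 and 260. A further one, chr4:115047001-115055200, ended 1225 bp from *Tal1*, a blood transcription factor, with 348 and 187 reads. These peaks were 8200 to 11600 bp long with log2 folds below 1.

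Of 1371 genes wholly in the interval, 500 (36.5%) overlapped an extra peak, and 162 (11.8%) had a peak only in *Dhx9* KO replicate 1. These shares were 8.25% and 2.70% in the distal stretch, and 12.3% and 2.65% of 27263 genes on the 16 autosomes other than 2, 4 and 8. They follow in part from the extra peaks that chose the interval, and nothing is read from them. Genes with any peak numbered 707 and 684 in wild-type, 959 and 652 in *Dhx9* KO, and 415 and 569 in *Uhrf1* KO. Of 1372 genes with a start site in the interval, 345 and 340 had a peak within 1 kb of it in wild-type, 622 and 298 in *Dhx9* KO, and 127 and 248 in *Uhrf1* KO. As shares these were 25.1% and 24.8%, 45.3% and 21.7%, and 9.26% and 18.1%. On the 16 autosomes the same shares were 30.0% and 29.1% in wild-type, 30.4% and 25.1% in *Dhx9* KO, and 10.2% and 21.3% in *Uhrf1* KO.

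The 10 genes with the most extra peaks were all coding genes of 369 to 2271 kb, and several act in neurons. The ranking counts extra peaks over whole gene bodies, which favours long genes, so nothing is read from their functions. *Dab1* (chr4:103619546-104744844), an adaptor of reelin signalling in neuronal migration, had 55 extra peaks. It overlapped 63 and 53 peaks in wild-type, 142 and 63 in *Dhx9* KO, and 19 and 40 in *Uhrf1* KO. *Astn2*, a membrane protein of neuronal migration, had 50 extra peaks and overlapped 18 and 12 in wild-type, 76 and 21 in *Dhx9* KO, and 10 and 8 in *Uhrf1* KO. In both genes *Dhx9* KO replicate 1 was above every other library and *Dhx9* KO replicate 2 was at or just above the higher wild-type library.

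*Adamtsl1*, a secreted ADAMTS-like protein, overlapped 20 and 21 peaks in wild-type, 86 and 36 in *Dhx9* KO, and 15 and 22 in *Uhrf1* KO. *Agbl4*, a carboxypeptidase that acts on tubulin, overlapped 24 and 28 in wild-type, 80 and 34 in *Dhx9* KO, and 13 and 22 in *Uhrf1* KO. *Ptprd*, a receptor tyrosine phosphatase of synapses and the longest of these genes, overlapped 10 and 9 in wild-type, 51 and 12 in *Dhx9* KO, and 9 and 8 in *Uhrf1* KO. In these 3 genes both *Dhx9* KO libraries were above both wild-type libraries, replicate 1 by far the more.

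*Nfia*, a transcription factor of glial development, had 29 extra peaks and overlapped 18 and 19 in wild-type, 64 and 21 in *Dhx9* KO, and 6 and 14 in *Uhrf1* KO. *Pde4b*, a cAMP phosphodiesterase, overlapped 8 and 7 in wild-type, 44 and 12 in *Dhx9* KO, and 7 and 8 in *Uhrf1* KO. *Fggy*, a carbohydrate kinase, overlapped 9 and 8 in wild-type, 34 and 8 in *Dhx9* KO, and 0 and 3 in *Uhrf1* KO. *Nkain3* and *Lingo2*, both membrane proteins of neurons, had 25 and 22 extra peaks. Across all 10 genes *Dhx9* KO replicate 1 had the most peaks of the 6 lists, as the choice of these genes by its extra peaks requires.

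**Figure D4:**
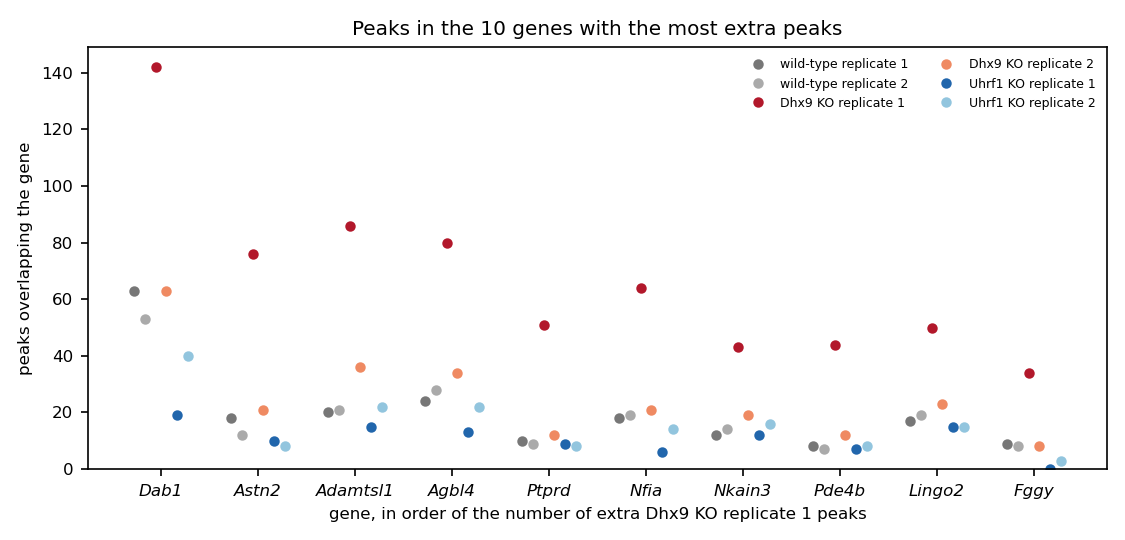
Peaks overlapping each of the 10 proximal genes with the most extra *Dhx9* KO replicate 1 peaks, with 1 point per library. *Dhx9* KO replicate 1 is highest at every gene, from 142 peaks in *Dab1* to 34 in *Fggy*.

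Genes of the interval with known roles in mESCs or in chromatin were looked at separately. *Klf4* and *Foxd3*, transcription factors of pluripotent cells, overlapped no peak in any of the 6 lists, and the same held for *Jun*, the cell cycle inhibitor gene *Cdkn2b* and the innate immune receptor gene *Tlr4*. *Cdkn2a*, next to *Cdkn2b*, overlapped 1 peak in each list, with 102 and 119 ChIP reads in wild-type, 194 and 166 in *Dhx9* KO, and 94 and 95 in *Uhrf1* KO. *Zfp352*, a zinc finger gene of early embryos, overlapped 1 peak in every list but wild-type replicate 1, with 172 reads in wild-type replicate 2, 255 and 141 in *Dhx9* KO, and 36 and 437 in *Uhrf1* KO. Called length differed between lists. For *Cdkn2a* it was 1.4 and 0.8 kb in wild-type, 0.8 kb in both *Dhx9* KO lists, and 1.2 and 0.8 kb in *Uhrf1* KO. For *Zfp352* it was 4.8 kb in wild-type replicate 2, 4.8 and 3.2 kb in *Dhx9* KO, and 1.8 and 8.4 kb in *Uhrf1* KO.

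The H3K9 demethylase genes *Kdm4a* and *Kdm4c* had no peak in wild-type or *Uhrf1* KO. *Kdm4a* overlapped 3 extra peaks with 293 ChIP reads in *Dhx9* KO replicate 1 and none in replicate 2, and *Kdm4c* overlapped 1 peak in each *Dhx9* KO library, with 48 and 116 reads, at places that do not overlap. *Pax5*, the B-cell transcription factor, was densely marked, with 23 and 26 peaks in wild-type, 22 and 14 in *Dhx9* KO, and 4 and 9 in *Uhrf1* KO, and 1 extra peak. ChIP reads summed over its peaks were 4553 and 4271 for wild-type, 7490 and 2492 for *Dhx9* KO, and 126 and 1074 for *Uhrf1* KO. Called length was 122.6 and 115.4 kb, 147.2 and 61.2 kb, and 5.6 and 29.0 kb in the same order. *Dhx9* KO replicate 1 thus had more reads in a like number of peaks, over a longer called length than wild-type. *Jak1*, a cytokine receptor kinase, overlapped 3 and 7 peaks in wild-type, 13 and 4 in *Dhx9* KO, and 0 and 2 in *Uhrf1* KO. *Nfib* and *Grin3a* had 5 and 6 extra peaks, and *Tal1* had none.

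Extra peaks over gene bodies differed in number between the gene clusters, which also differ in gene length, and nothing is read from that difference. For instance, *Ifna5* and *Ifna13* are 0.57 and 0.819 kb long and *Skint5* is 522 kb long. Of all genes in the interval, 36.5% overlapped an extra peak. None of the 18 interferon (*Ifn*) genes, which encode antiviral cytokines, had one, and 8 and 7 of them had a peak in wild-type, 8 and 5 in *Dhx9* KO, and 1 and 2 in *Uhrf1* KO. Of 25 *Mup* genes, which encode pheromone-binding proteins, 7 and 9 had a peak in wild-type, 12 and 9 in *Dhx9* KO, and 12 in each *Uhrf1* KO list, with 2 extra peaks. Of 25 olfactory receptor (*Olfr*) genes, 19 and 18 had a peak in wild-type, 23 and 21 in *Dhx9* KO, and 4 and 14 in *Uhrf1* KO, also with 2 extra peaks. The clusters thus differed in *Uhrf1* KO, with fewer marked *Ifn* and *Olfr* genes and no fewer marked *Mup* genes. Over all 1371 genes of the interval, *Uhrf1* KO replicates 1 and 2 marked 30.3% and 41.5%, below the 51.6% and 49.9% of wild-type. A lower number alone therefore does not set *Ifn* or *Olfr* genes apart from the interval. These counts are a description, and the difference between clusters was not tested.

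Of 12 *Cyp4* genes, which encode fatty acid hydroxylases, 10 and 11 had a peak in wild-type, 12 and 10 in *Dhx9* KO, and 8 and 10 in *Uhrf1* KO, and 5 of them overlapped an extra peak. Of 11 *Skint* genes, which encode immunoglobulin-like proteins of skin and thymus, 5 and 4 had a peak in wild-type, 7 and 6 in *Dhx9* KO, and 4 in each *Uhrf1* KO list, and 4 of them overlapped an extra peak. *Skint5* overlapped 7 and 9 peaks in wild-type, 20 and 13 in *Dhx9* KO, and 35 and 17 in *Uhrf1* KO. Both knockouts were above both wild-type libraries there, and *Uhrf1* KO replicate 1 was highest although its list was the shortest. Of the 8 *Zfp* genes, *Zfp618* overlapped 18 and 20 peaks in wild-type, 18 and 22 in *Dhx9* KO, and 10 and 16 in *Uhrf1* KO, and *Zfp462* had 7 of the 11 extra peaks in 3 of these genes. Copies of *Mup*, *Ifn*, *Skint* and *Olfr* genes are alike in sequence, so reads may be shared between them.

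The strongest regions called in all 6 lists, ranked by the lower wild-type log2 fold, lay between genes, 3 of the 5 near *Mup* genes. The region chr4:61767401-61770400, near *Mup19*, had a log2 fold of 4.32 and 4.296 in wild-type, 3.73 and 3.94 in *Dhx9* KO, and 4.38 and 5.39 in *Uhrf1* KO. Its repeat share was 99.8% and its CpG content 3.33 per 100 bases. The region chr4:61744601-61745400 had 4.295 and 4.28 in wild-type, 3.72 and 3.07 in *Dhx9* KO, and 3.13 and 4.49 in *Uhrf1* KO. Neither showed a higher log2 fold than wild-type in *Dhx9* KO replicate 1. Both were chosen by their wild-type log2 fold, which favours this, so nothing is read from it. ChIP reads of *Dhx9* KO replicate 1 in these regions were 119 and 92, against 125 and 123 in wild-type replicate 1 and 152 and 100 in wild-type replicate 2. They come from unlike called lengths, 2000 and 600 bp in *Dhx9* KO replicate 1, 1400 and 800 bp in wild-type replicate 1, and 2000 and 200 bp in wild-type replicate 2.

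Peaks of the 4 libraries of a comparison were next merged into regions. In *Dhx9* KO against wild-type, 730 of 9260 proximal regions (7.88%) had a peak in both knockout libraries and neither wild-type library, against 4.11% of all regions. Only 30 (0.324%) had the reverse pattern, against 3.52%. The gained regions require a peak in *Dhx9* KO replicate 1, which chose the interval. Taken alone, *Dhx9* KO replicate 2 had 1139 regions absent from both wild-type lists, or 18.2% of proximal regions against 16.2% of all, and lacked 552 found in both, or 8.82% against 9.76%. For *Dhx9* KO replicate 1 alone the gained regions numbered 4607, or 49.4% against 15.7% of all, and the missing ones 49, or 0.526% against 8.98%, and nothing is read from these because that library chose the interval. For *Uhrf1* KO, 189 of 6051 proximal regions (3.12%) were gained, against 3.0% of all, and 741 (12.2%) were lost, against 13.7%. The shares in *Dhx9* KO replicate 2 and in *Uhrf1* KO were near those of all regions.

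A region entered the test of ChIP reads when each of the 4 libraries had peaks over 80% or more of its length. The test was edgeR's quasi-likelihood test, called length as offset and Benjamini-Hochberg adjustment over all regions of the genome. In *Dhx9* KO, 1 of 180 proximal regions had more reads, against 0.0425% of the 4701 regions tested, and 0 had fewer, against 0.553%. At an unadjusted p under 0.05, 28 had more and 8 fewer, against 4.38% and 7.81% of all regions, and DESeq2 called 0 in either direction. The median log2 change was 0.20 over the proximal regions and 0.00 over all, with 145 of 180 proximal values above 0. Without *Dhx9* KO replicate 1 the proximal median was 0.00, with 5 regions higher and 9 lower, against 4.79% and 5.42% of all regions. Without *Dhx9* KO replicate 2 the median was 0.36, with 60 higher and 2 lower, against 4.94% and 10.7% of all regions. Each of these fits has a lone knockout library that is assumed to vary like the wild-type libraries. The second one rests on the library that chose the interval, so its counts are no test of the proximal regions.

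The region that passed, chr4:38066401-38069400, lies between genes, 502 kb from *Gm12381*. ChIP reads there numbered 112 and 88 for wild-type libraries, then 242 and 211 for *Dhx9* KO, a log2 change of 1.03 ± 0.19 (SE), and *Dhx9* KO replicates 1 and 2 were both above both wild-type libraries. Its window above holds 8 CG in 300 bases. When either wild-type library was left out, no proximal region passed.

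In *Uhrf1* KO, 4 of 123 proximal regions had more reads, against 3.2% of the 2528 tested, and 5 had fewer, against 5.54%. The median log2 change was 0.02 over the proximal regions, against -0.01 over all. The largest fall was at chr4:63662201-63665000, 20.2 kb from *Gm11482*, where wild-type had 170 and 198 reads, *Uhrf1* KO 35 and 90 (log2 change -1.31 ± 0.20 SE, edgeR adjusted p = 0.00151). Reads also fell in an intron of *Cngb3*, a cone channel subunit gene, by 1.07 on the log2 scale, in an intron of *Gabbr2*, a GABA receptor subunit gene, by 0.79, and in regions nearest to *Fut9* and *Pde4b* by 0.84 and 0.66. In raw reads *Uhrf1* KO replicate 1 was below both wild-type libraries at all 5 of these regions and at the 4 that rose, in the list with the fewest reads. Replicate 2 had 295 reads at the region nearest to *Pde4b*, between the 305 and 287 of wild-type.

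The largest rise was at chr4:51102201-51102400, 114 kb from *Cylc2*, where wild-type had 31 and 41 reads, *Uhrf1* KO 30 and 84 (log2 change 0.87 ± 0.25 SE, edgeR adjusted p = 0.0423). Rises of 0.85, 0.60 and 0.59 were found nearest to *Gm34133* and *Musk*, the muscle receptor kinase gene, and in an intron of *Gm42266*. With all libraries taken as equal in size, no proximal region passed, and without wild-type replicate 2 only 1 did, so these calls rest on the scaling and on few libraries.

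**Figure D5:**
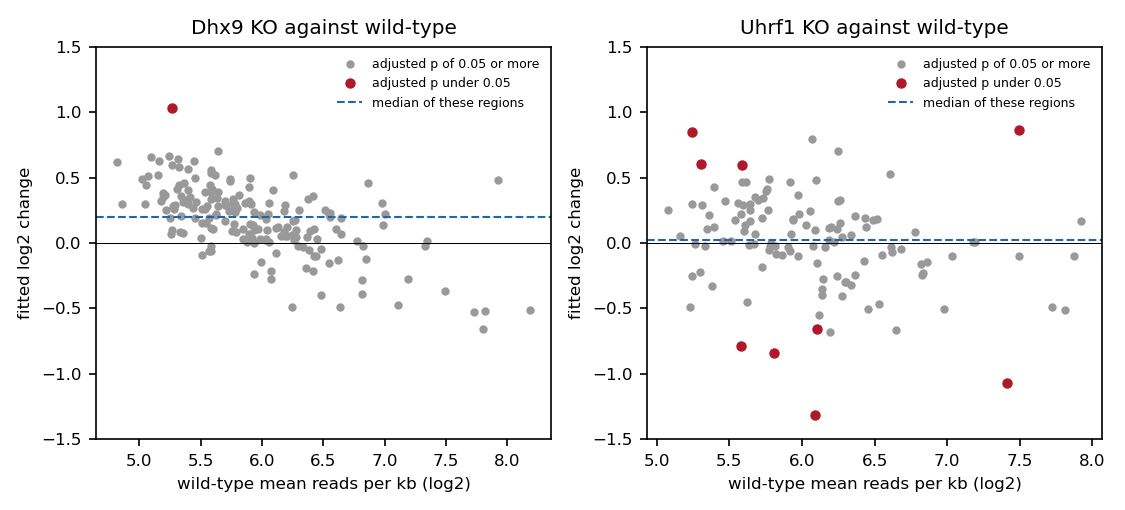
Fitted log2 change of proximal regions in *Dhx9* KO (left, 180 regions) and *Uhrf1* KO (right, 123 regions) against the log2 of the wild-type mean reads per kb; red points have an adjusted p under 0.05 and the dashed line is the median. The *Dhx9* KO regions have a median of 0.20 with 1 red point, and the *Uhrf1* KO regions have a median of 0.02 with 9.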

How the data were processed

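Peak lists of H3K9me3 ChIP-seq in 6 mESC libraries were analysed, and the other 12 of the 18 samples were not analysed here. Per the submitters' processing notes, reads were aligned with Bowtie2 2.3.4.3 to mm10. The authors subsampled reads and called peaks per library in 200-bp bins with epic2, keeping duplicates, and name wild-type input as background. For every peak, the deposited lists hold raw counts of ChIP reads and background reads. The authors' peak caller also wrote a p-value and FDR, a log2 fold (ChIP relative to background, scaled by library size) and a score that is 100 times this log2 fold, capped, and not used here.

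Positions are 1-based. Shares, overlaps (at least 1 shared base) and merged regions were computed with Python 3.11.15, pandas 2.3.3, numpy 2.4.6 and scipy 1.17.1. Counts of regions went into edgeR 4.0.16 under R 4.3.3 (TMM, FDR of 0.05), with DESeq2 1.42.0 as an alternative. On simulated data, 162 of 200 regions changed 2-fold were recovered in each comparison, beside 9 (*Dhx9* KO) and 3 (*Uhrf1* KO) false calls. The simulated counts had a fixed dispersion set in advance and were fitted without the length offset. They therefore check that the code works and do not measure the power of the tests above. No region fell to the low-count filter. Gene places came from the deposited annotation, sequences and repeats from GRCm38.p6.

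Replicate numbers did not pair libraries (correlations of deviations -0.07 and 0.06). The interval, gene lists and tests were chosen with earlier results of these data known. Named genes were 6 families, 18 single genes, the 10 genes with most extra peaks, the 5 strongest extra and shared peaks and the 5 largest changes per direction and test. Alternatives were stricter peak filters, equal list sizes, other overlap rules, references and test settings, and leaving out each library. Reference chromosomes without 8, X and Y were added after seeing the data. Reads outside peaks are not in the lists, and count precision covers counting error only.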

Additional observations from a re-analysis of the deposited data

How the results depend on the processing

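The number of extra peaks ranged from 2363 to 4205 under 5 alternatives, each within 1.5 times. The proximal share of *Dhx9* KO replicate 1 was 10.6% at an FDR of at most 1e-10, 10.8% at a log2 fold of at least 1, 10.2% with an equal number of peaks per list, 8.48% of called length and 8.59% of ChIP reads. Under each, the other 5 libraries lay between 3.32% and 4.58%. The read difference of 0.33 was 0.43 against the distal stretch, 0.38 in peaks of at least 2 kb, 0.37 in regions covered over at least 80% and 0.32 without chromosomes 8, X and Y.

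Regions gained in *Dhx9* KO numbered 415 at the stricter FDR and also 415 at a log2 fold of at least 1, and 1026 to 4607 when a library was left out. In the *Dhx9* KO test, DESeq2 and all regions called in every library each gave 0 calls, leaving out a library gave 0 to 62, and a replicate block gave 4. In the *Uhrf1* KO test, 9 calls became 4 with DESeq2, 0 with equal library sizes, 14 without the length offset, 0 over all regions called in every library, 1 with all 6 libraries and 1 to 19 without a library, and a replicate block gave 10. The libraries share only a replicate number, so the block is given for completeness. The cause of these changes was not tested. With 2 libraries per genotype, and reads counted only inside peaks, a region missing from a list has no read value.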

Other observations

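The stretch of chromosome 4 before the interval also held more *Dhx9* KO replicate 1 peaks, 539 against 237 and 249 in wild-type, 309 in *Dhx9* KO replicate 2, and 262 and 278 in *Uhrf1* KO. Called length there was 1.72 Mb in *Dhx9* KO replicate 1, 1.07 Mb in replicate 2, 0.611 and 0.650 Mb in wild-type, and 0.979 and 0.820 Mb in *Uhrf1* KO, so each knockout list was above both wild-type lists. In the 4 Mb between the interval and the distal stretch, *Dhx9* KO replicate 1 had 314 peaks, against 272 and 283 in wild-type, and covered less, 1.44 Mb against 1.68 and 1.60 Mb.

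Called length of the distal stretch was lower in each knockout library than in wild-type. It covered 8.32 and 8.12 Mb in wild-type, 6.74 and 4.97 Mb in *Dhx9* KO, and 2.10 and 4.85 Mb in *Uhrf1* KO. Over the wild-type mean this was 0.819 and 0.604 times in *Dhx9* KO and 0.256 and 0.590 times in *Uhrf1* KO. Over the 17 autosomes other than 4 and 8 it was 1.01, 0.974, 0.487 and 0.837 times. In peak number the distal stretch stood at 1.04, 0.837, 0.461 and 0.661 times in the same order. The lowest of those single autosomes stood at 1.01, 0.924, 0.416 and 0.659 times, and called length was not compared by single autosome. The ratio of proximal to distal called length was 1.81 and 1.82 in wild-type, 5.15 and 3.19 in *Dhx9* KO, and 3.99 and 2.70 in *Uhrf1* KO. In *Dhx9* KO replicate 1 that ratio follows from the choice of the interval, and *Dhx9* KO replicate 2 and the *Uhrf1* KO libraries were each above both wild-type libraries. The distal share of peaks was lower in *Uhrf1* KO than in wild-type by 0.256 percentage points on average (exact two-sided permutation test, p = 0.333, the smallest that 2 against 2 libraries can give).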
